A study of Mus musculus with 2 samples.

Results

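Natural killer (NK) cells of the mouse spleen that held transcripts of both Cd27 and Itgam were compared with NK cells that held Itgam transcripts alone. Cells were taken into the NK gate when at least 2 of Ncr1, Klrb1c and Klre1 had a unique molecular identifier (UMI, 1 counted transcript molecule) and Trac and Cd79a had none. Each gated cell was thinned at random to 2500 UMIs, and cells with at least 1 UMI of both Cd27 and Itgam are called double-positive, those with Itgam and no Cd27 Itgam-only. Of 7950 gated cells with enough UMIs, 440 were double-positive and 2482 were Itgam-only, out of 16384 barcodes in the matrix. The levels of Cd27 and Itgam, and of the 5 gate genes, therefore follow from the choice of cells, which were selected on these UMI counts, and are described without a test. All other genes were compared between the classes.

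The study profiled spleen NK cells of wild-type mice, obtained by negative selection, with droplet single-cell sequencing of transcript 3′ ends. Its title concerns Kir6.1, the potassium channel subunit encoded by Kcnj8, and NK cell development. Cells of several mice were marked with lipid tags and pooled, and 3 tags were read in the 1 library analysed here. Whether cells of the study's second sample are among these tags is not known. No genotype, treatment or time point differs between the cells, sex and age are not given in the labels used here, and both classes come from the same mice, the same library and the same batch. The labels do not tie a tag to a mouse, so the 3 tags are 3 pools of cells, and a p-value measures only the spread between these pools, which may be technical.

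CD27 is a receptor of the tumour necrosis factor receptor family, and ITGAM, or CD11b, is an integrin chain. As mouse NK cells mature they are known to gain CD11b while they still carry CD27 and to lose CD27 later, so that protein staining for both orders NK cells from CD27 single-positive through double-positive to CD11b single-positive cells. The last stage is known for KLRG1, CX3CR1, S1PR5 and the transcription factors ZEB2 and T-bet, and the earlier ones for TCF1, IL-7 receptor and lymphotoxin beta. The classes described below rest on transcripts and not on protein staining.

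The barcodes with 500 to 6000 genes and at most 10% mitochondrial UMIs numbered 15742, and 11692 of them carried exactly 1 tag. The NK gate held 8978 of these, and 1028 were left out because they had fewer than 2500 UMIs. The 7950 classed cells held 12776475, 16778019 and 12911424 gene UMIs in tags 1, 2 and 3. The summed double-positive cells held between 580925 and 922018 UMIs per tag and the Itgam-only cells between 3223336 and 4594731, so the level of a rare transcript is less precise in the double-positive class. Several tags were found on 3540 of the 15742 barcodes. Pairs of cells that share 1 tag are not recognised by this step, and no further removal of doublets was made.

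Double-positive cells made up 5.82%, 5.77% and 4.96% of the classed cells of tags 1, 2 and 3, a mean of 5.52% ± 0.481 (SD, n = 3). Pooled over tags the share was 5.53%, with an exact binomial 95% interval from 5.04% to 6.06% that covers counting error only. Itgam-only cells made up 31.2% ± 0.961, cells with Cd27 alone 14.01% ± 0.343 and cells with neither transcript 49.3% ± 1.61. Detection was thin in both classes: 383 of the 440 double-positive cells (87.0%) had exactly 1 Cd27 UMI, 71.8% had exactly 1 Itgam UMI, and 274 cells had exactly 1 of each. Of the Itgam-only cells 65.0% had exactly 1 Itgam UMI.

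A Cd27 UMI was less frequent in cells with Itgam than in those without. It was found in 15.7%, 15.3% and 14.1% of the cells with Itgam in tags 1, 2 and 3, against 21.8%, 23.1% and 21.4% of the cells with no Itgam UMI. With 1, 2 and 3 or more Itgam UMIs the mean share over tags was 16.3% ± 1.73, 13.3% ± 1.62 and 10.4% ± 0.956. Among 409 B cells of the same library, gated by Cd79a with Cd79b or Ms4a1, 4.40% had a Cd27 UMI, 1.22% an Itgam UMI and 0 had both. At a floor of 3 counts, 0 of 409 allows a share of up to 0.733%, and the exact binomial interval ends at 0.898%. The median depth was 3978 UMIs in those B cells and 4342.5 in the classed NK cells. These are descriptions of the genes that set the classes.

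**Figure D1:**
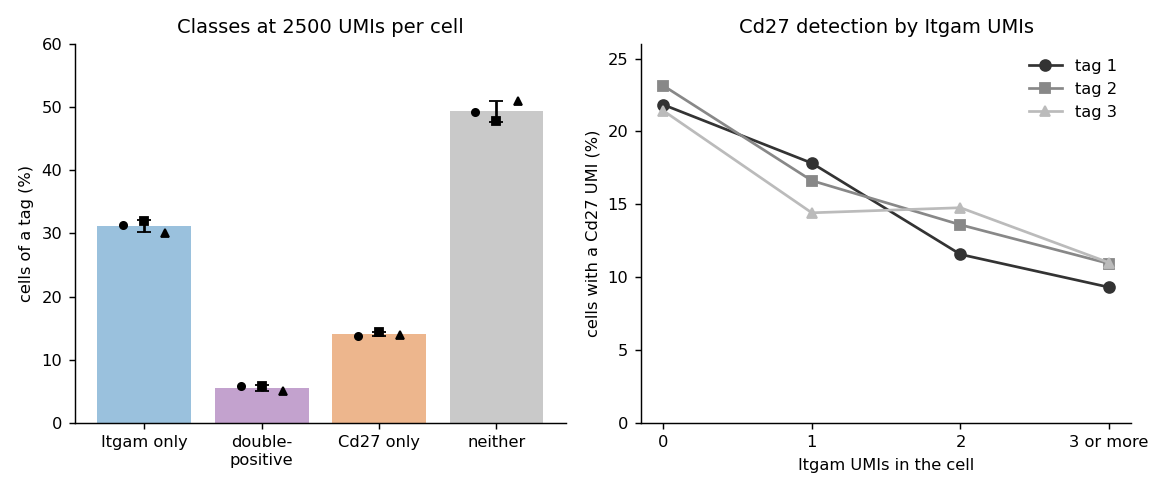
Left, share of the classed cells of a tag (percent, y axis) in each of the 4 classes, with bars for the mean, whiskers for the SD over 3 tags and symbols for tag 1 (circle), tag 2 (square) and tag 3 (triangle). Right, share of cells with a Cd27 UMI (percent) by the number of Itgam UMIs in the cell, 1 line per tag; the mean over tags goes from 22.1% at no Itgam UMI to 10.4% at 3 or more.

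Which cells fall in the double-positive class depends on the random thinning. With 9 other random seeds, 50.5% to 55.9% of the 440 cells remained double-positive and 17.5% to 23.0% became Itgam-only, while the number of double-positive cells lay between 415 and 465. In the other direction, 283 Itgam-only cells (11.4%) held a Cd27 UMI before thinning that thinning removed. Those 283 cells were deeper, with a median of 5972 UMIs, than the 2199 Itgam-only cells that had none, with 3718. For the 2 classes as a whole the medians were 4330.5 UMIs and 1982 genes in double-positive cells against 3849 UMIs and 1839.5 genes in Itgam-only cells. Without the deepest 10% of the gated cells, the test described below called 109 genes higher and 49 lower, beside 96 and 52 with all cells. Barcodes of the NK gate with several tags, with a median of 8186 UMIs, held 6.57% double-positive cells (161 of 2451, exact binomial interval 5.62% to 7.62%).

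In the unthinned sums, Cd27 stood at 336, 277 and 331 CPM (counts of a gene scaled to 1000000 gene UMIs of the same cells) in the double-positive cells of tags 1, 2 and 3 and at 30.0, 34.2 and 36.3 CPM in Itgam-only cells. Itgam was at 398 ± 44.2 CPM in double-positive and 470 ± 7.83 in Itgam-only cells (SD, n = 3), although both classes require it. The gate genes Ncr1, Klrb1c and Klre1 lay at 788, 1059 and 1192 CPM in double-positive cells and at 925, 1171 and 1305 in Itgam-only cells. All 3 therefore had a lower mean in double-positive cells.

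Of 9625 genes tested with edgeR's quasi-likelihood test with the tag as a block, 96 were higher in double-positive cells at a Benjamini-Hochberg adjusted p under 0.05, which is 0.997% of the genes, and 52 were lower, which is 0.54%. The 148 genes together are 1.54% of those tested. The differences were mostly small, with a median of 1.25-fold for the genes that were higher and 1.505-fold for those that were lower. The higher value lay in double-positive cells in all 3 tags for 95 of the 96, and the lower value in all 3 tags for 50 of the 52. The values of the 3 tags did not overlap between classes for 84 and 45 of them, against 5.98% and 8.58% of all genes tested. Of the 96 genes, 38 encode ribosomal proteins. Counts of called list members, given below, stand beside shares of 0.997% higher and 0.54% lower over all genes tested.

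The calls varied with the random thinning, which redraws the classes. Of the 96 genes higher in double-positive cells 29 were called in all 9 other seeds, 67 in at least 5 and 5 in none, and of the 52 lower genes 20, 31 and 6. The number of other seeds in which a called gene was also called is therefore given with it below. With only the 124 double-positive and 868 Itgam-only cells that had at least 2 Itgam UMIs, 3 genes were higher (Aff3, Traf1 and Ctla2a) and 3 lower (Zeb2, Cx3cr1 and Ly6c2).

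**Figure D2:**
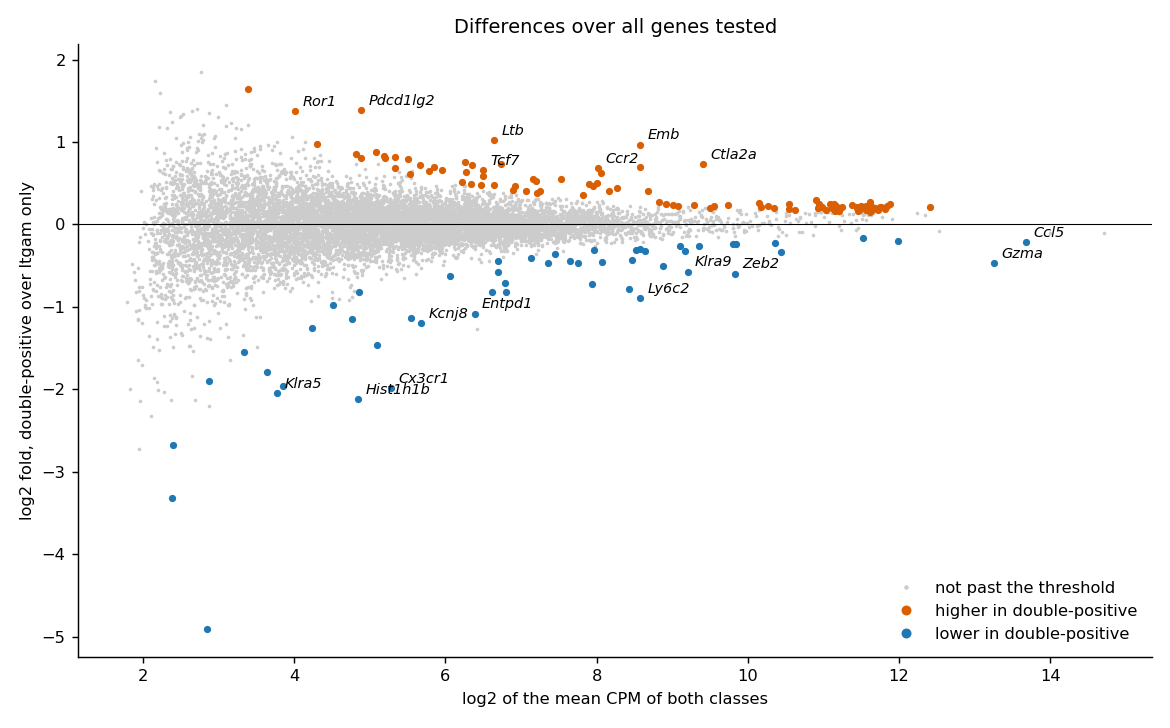
Log2 fold of double-positive over Itgam-only cells (y axis) against the log2 of the mean CPM of both classes (x axis) for the 9625 genes tested; orange, the 96 genes higher in double-positive cells; blue, the 52 lower; grey, all others. The folds spread widely at low levels, and called genes at high levels, such as Ccl5, differ by small folds. The lowest point is Pclaf, a DNA replication gene with 1 UMI in all double-positive cells, for which no fold is given.

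Genes of late NK maturation were lower in double-positive cells. Of 21 tested genes on a list of them, 13 (61.9%) were lower and 0 higher, against 0.54% and 0.997% of all genes tested. The median log2 fold was -0.41, against 0.00 over all genes tested. All 21 had a negative log2 fold, as did 4760 of the 9625 genes tested. The list was drawn up with earlier results of these data known, so its direction is a description. Markers of other cell types are given further down.

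Cx3cr1, the receptor for the chemokine fractalkine, was at 16.0, 10.8 and 22.4 CPM in the double-positive cells of tags 1, 2 and 3 and at 58.1, 75.7 and 49.9 CPM in Itgam-only cells. All 3 double-positive values lay below all 3 Itgam-only values, and the level was 3.97-fold lower (log2 fold -1.99 ± 0.23 SE; adjusted p = 1.2e-06, edgeR). The lower call was also made in 9 of 9 other seeds. A Cx3cr1 UMI was found in 2.86% ± 1.55 of double-positive and 10.6% ± 0.57 of Itgam-only cells at 2500 UMIs, and in 0.978% of B cells. Cx3cr1 spans chromosome 9 from 119901616 to 120069879 on the minus strand (GENCODE M21, build GRCm38) and overlaps 9 other annotated genes, so reads of overlapping genes may be assigned differently by other annotations.

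Ly6c2, a surface protein of mature NK and memory T cells, was at 278, 222 and 294 CPM in double-positive and at 601, 422 and 471 CPM in Itgam-only cells, and was 1.86-fold lower without overlap (log2 fold -0.89 ± 0.08 SE; edgeR adjusted p = 3e-09; 9 of 9 other seeds). Klrg1, an inhibitory lectin-like receptor of terminal maturation, was at 69.9, 77.0 and 94.7 CPM against 153, 149 and 123 CPM, which is 1.76-fold lower (adjusted p = 1.2e-04, edgeR; 9 of 9 seeds). Zeb2, which encodes a repressor needed for terminal NK maturation, was at 704, 703 and 754 CPM against 1107, 1133 and 1068 CPM, 1.51-fold lower (adjusted p = 7.2e-09, edgeR; 9 of 9 seeds). None of these genes had a double-positive value in the Itgam-only range. Zeb2 and Ly6c2 were also lower in each of the other settings tried.

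The other members of this list that passed were S1pr5, Lgals1, Fgl2, Irf8, Entpd1, Kcnj8 and the granule genes Gzmb, Prf1 and Cma1. S1pr5, the sphingosine-1-phosphate receptor with which NK cells leave tissues, was at 118 ± 26.2 against 162 ± 12.3 CPM and was called in 9 of 9 other seeds. Its adjusted p was 0.045 in edgeR, and 0.43 and 0.20 without tags 1 and 3, where the log2 fold went from -0.41 to -0.30 and -0.35. Lgals1, which encodes galectin-1, was at 1215 ± 63.7 against 1557 ± 113 CPM (adjusted p = 2.5e-05, edgeR; 9 of 9 other seeds). Fgl2, a fibrinogen-like secreted protein, and Irf8, an interferon regulatory factor, were 1.64-fold and 1.35-fold lower, each in 9 of 9 other seeds. Klf2, Ahnak and Itgb1, highly expressed members of the list, did not pass, at log2 folds of -0.14, -0.09 and -0.08. Klf2 also did not pass in 21 of 29 alternatives, and was called lower in the rest. Tbx21, which encodes T-bet, was at 217 against 249 CPM and did not pass either (adjusted p = 0.43, edgeR).

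**Figure D3:**
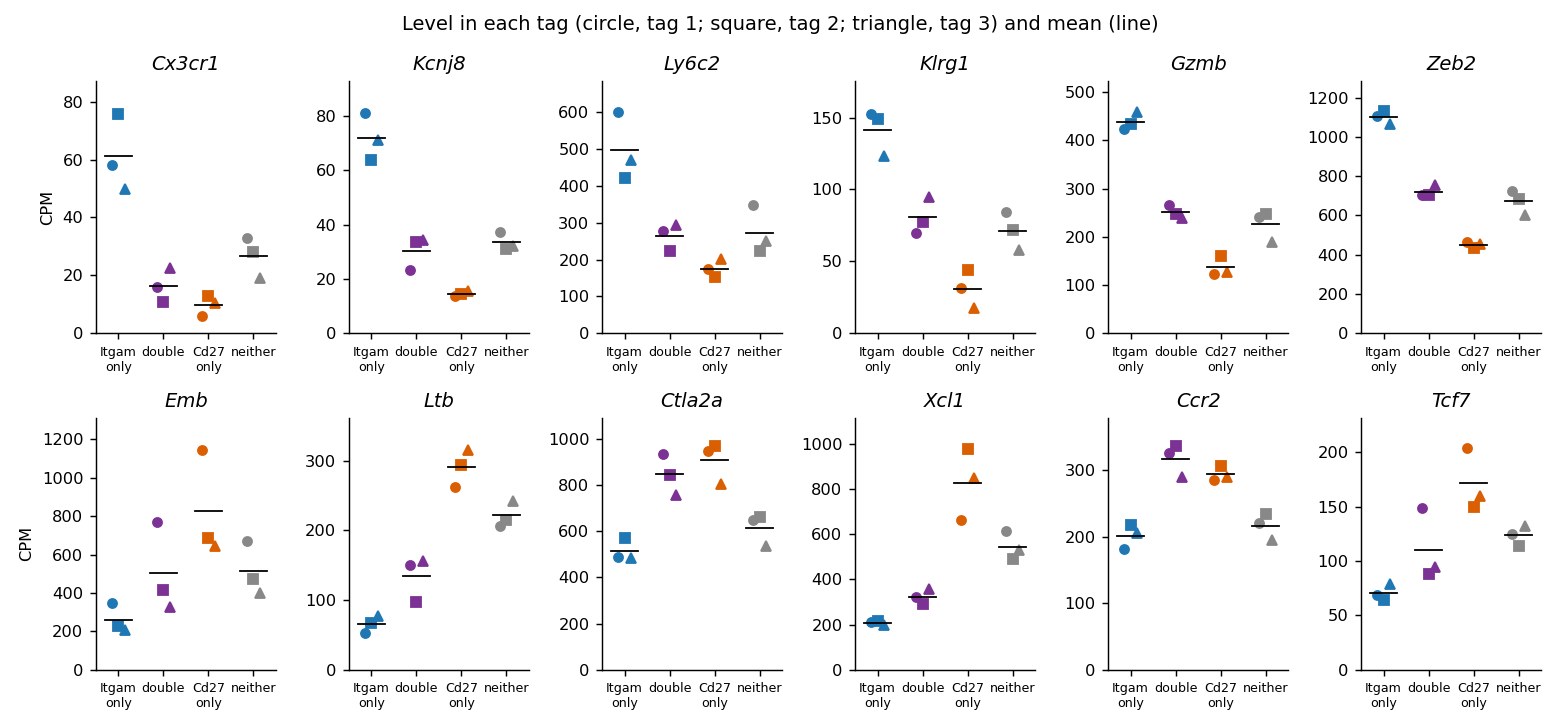
Level (CPM, y axis, each from 0) of 12 genes in the summed cells of each tag and class; symbols stand for tags 1 to 3 and lines for their mean. The upper row holds genes lower in double-positive than in Itgam-only cells and the lower row genes that were higher; cells with Cd27 alone and with neither transcript are shown beside them as values.

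Kcnj8, the gene of the study's title, was lower in double-positive cells. It encodes Kir6.1, the pore of an ATP-sensitive potassium channel that is known to assemble with a sulfonylurea receptor encoded by Abcc8 or Abcc9. Kcnj8 was at 23.3, 33.6 and 34.4 CPM in double-positive cells and at 81.2, 63.8 and 71.4 CPM in Itgam-only cells. The values did not overlap, and the level was 2.29-fold lower (log2 fold -1.20 ± 0.18 SE; edgeR adjusted p = 7.6e-05; 9 of 9 other seeds, with log2 folds from -1.42 to -0.92).

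At 2500 UMIs a Kcnj8 UMI was found in 8.81% ± 1.08 of double-positive and 17.1% ± 1.02 of Itgam-only cells, and in 0 of 409 B cells (up to 0.733% at the floor of 3 counts). Beside these classes, cells with Cd27 alone were at 14.4 ± 1.05 CPM and cells with neither transcript at 33.5 CPM on average. Its gene covers positions 142564837 to 142571614 of chromosome 6 (minus strand), and no other annotated gene overlaps it. Among cells with at least 2 Itgam UMIs the log2 fold was -0.92 and did not pass (adjusted p = 0.43, edgeR).

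Of 7 tested potassium channel genes 1 was lower, Kcnj8, and 1 was higher, Kcnip3, which encodes a calcium-binding protein that associates with potassium channels. Kcnip3 was at 105, 124 and 117 CPM against 78.6, 84.4 and 91.2 CPM, a 1.39-fold difference (adjusted p = 0.020, edgeR) called in 2 of 9 other seeds and lost without tag 1 (adjusted p = 0.098) or tag 2 (0.29). Kcnq5, a voltage-gated channel gene, was at 801 ± 75.8 against 781 ± 26.8 CPM and did not pass. The receptor genes Abcc8 and Abcc9 had 0 UMIs in double-positive cells, and in Itgam-only cells they had 0 and 1 UMI in all.

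Entpd1, which encodes CD39, the ectoenzyme that degrades extracellular ATP and ADP, was also lower. It was at 40.8, 62.9 and 55.1 CPM against 118, 120 and 107 CPM, 2.12-fold lower without overlap (adjusted p = 6.5e-06, edgeR; 9 of 9 other seeds). It was the only one of 8 tested genes of purine ectoenzymes and receptors that passed. Adora2a, an adenosine receptor gene, was at 61.0 against 60.6 CPM.

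Of 22 tested genes of the cytotoxic granule, 5 (22.7%) were lower, 1 (4.55%) was higher and 16 did not pass. Over all genes tested 0.54% were lower and 0.997% higher. The median log2 fold of the list was -0.14. Gzmb, the protease granzyme B, was at 267, 247 and 239 CPM in double-positive and at 424, 434 and 459 CPM in Itgam-only cells, 1.72-fold lower (adjusted p = 1.7e-08, edgeR). Cma1, a chymase gene, was at 184 ± 12.5 against 306 ± 30.1 CPM, and Gzma, the protease granzyme A, at 8114 ± 929 against 11372 ± 542 CPM, 1.38-fold lower. These 3 genes were called lower in 9 of 9 other seeds.

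Prf1, which encodes the pore-forming perforin, and Nkg7, a granule membrane protein gene, passed with small differences of 1.17-fold and 1.12-fold and were called in 9 and 6 of 9 other seeds. Without tag 1 the log2 fold of Prf1 went from -0.23 to -0.19 (adjusted p = 0.12, edgeR). That of Nkg7 was -0.20 without tag 2 (0.12) and -0.17 without tag 3 (0.10), against -0.17 with all tags. Gzmm, the protease granzyme M, was the higher one, at 21.8, 34.7 and 20.7 CPM against 14.7, 12.6 and 13.96 CPM (adjusted p = 0.045, edgeR), and was called in 1 of 9 other seeds. Without tag 2 its log2 fold went from 0.98 to 0.59 (adjusted p = 0.75). Srgn, the granule proteoglycan gene, was at 708 against 688 CPM and did not pass.

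Genes of less mature NK cells were higher. Of 19 tested genes on a list of them, 10 (52.6%) were higher and 0 lower in double-positive cells. Over all genes tested the shares were 0.997% and 0.54%. The median log2 fold of the list was 0.63. All 19 had a positive log2 fold, as did 4865 of the 9625 genes tested. The 10 genes were Emb, Ltb, Ctla2a, Xcl1, Tcf7, Cd28, Cd7, Tox, Thy1 and Il7r. This list, too, was drawn up with earlier results known.

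Emb, which encodes embigin, a membrane glycoprotein of the immunoglobulin superfamily, was at 769, 418 and 327 CPM in double-positive and at 346, 225 and 205 CPM in Itgam-only cells. Tag 1 was high in both classes, so the class ranges overlap although the gene was higher within each tag. With the tag as a block it was 1.95-fold higher (log2 fold 0.97 ± 0.07 SE; adjusted p = 8.5e-10, edgeR; 9 of 9 other seeds), and without the block its adjusted p was 0.097. Ltb, the lymphotoxin beta gene, was at 150, 97.6 and 157 CPM against 52.6, 67.7 and 77.6 CPM, 2.03-fold higher without overlap (adjusted p = 1.9e-05, edgeR; 9 of 9 other seeds). B cells of the library had an Ltb UMI more often, in 74.1% of cells, than double-positive cells, in 21.1% ± 3.39, or Itgam-only cells, in 8.95% ± 1.75.

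Ctla2a, which encodes a small protease inhibitor, was at 935, 845 and 757 CPM against 490, 571 and 486 CPM, 1.66-fold higher (adjusted p = 3e-09, edgeR; 9 of 9 other seeds), and passed in each of the other settings tried. Xcl1, the chemokine that attracts cross-presenting dendritic cells, was at 320, 290 and 356 CPM against 213, 216 and 198 CPM, 1.54-fold higher (adjusted p = 9.6e-06, edgeR; 9 of 9 seeds). Tcf7, which encodes the transcription factor TCF1, was at 149, 87.9 and 94.7 CPM against 69.0, 64.2 and 78.8 CPM, and was called in 9 of 9 other seeds. Tag 1 was the highest of its double-positive values, and without tag 1 the log2 fold went from 0.66 to 0.39 and the adjusted p from 0.0049 to 0.44.

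Cd28, a costimulatory receptor gene, and Cd7, a surface glycoprotein gene, were 1.66-fold and 1.42-fold higher in 9 of 9 other seeds. Tox, a nuclear factor needed early in NK development, was at 353 ± 30.3 against 263 ± 23.9 CPM but was called in 2 of 9 other seeds. Thy1 was 1.65-fold higher (9 of 9 seeds), and without tag 2 its adjusted p was 0.30 (edgeR) at a log2 fold of 0.55, against 0.72. Il7r, the interleukin 7 receptor chain, was at 58.3, 36.9 and 41.3 CPM against 24.0, 16.8 and 41.9 CPM, so it was higher in 2 of 3 tags. It was called in 9 of 9 other seeds. Its adjusted p was 0.036 in edgeR, and 0.51 and 0.17 without tags 1 and 2. Bach2 and Cd2, abundant members of the list, each lay at a log2 fold of 0.22 and did not pass.

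For Xcl1, Ltb, Cd7, Tox and Tcf7, cells with Cd27 alone stood further from Itgam-only cells than double-positive cells did. They were at 829 ± 158 CPM for Xcl1, 291 ± 26.5 for Ltb, 601 ± 38.3 for Cd7, 603 ± 73.9 for Tox and 171 ± 28.5 for Tcf7. Likewise they were at 9.64 ± 3.56 CPM for Cx3cr1, 30.9 ± 13.1 for Klrg1, 137 ± 20.2 for Gzmb, 450 ± 17.0 for Zeb2 and 4664 ± 682 for Gzma. For Ctla2a the double-positive level of 846 ± 88.9 CPM lay near the 908 ± 88.6 of cells with Cd27 alone. Of the 96 genes called higher, the double-positive mean lay between those of Itgam-only and Cd27-only cells for 73 and above both for 23. Of the 52 called lower it lay between them for 33 and below both for 19. These genes were called on the same sums, so their side of the Itgam-only cells was set beforehand. No such tally was made over genes that were not called. The levels of the classes stand side by side as values, since the comparisons would share the double-positive cells.

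Genes of trafficking moved in both directions, with 2 of 21 tested higher (9.52%) and 4 lower (19.0%). Over all genes tested 0.997% were higher and 0.54% lower. Ccr2, the receptor for the chemokine CCL2, was at 325, 336 and 289 CPM in double-positive and at 181, 217 and 205 CPM in Itgam-only cells, 1.60-fold higher without overlap (adjusted p = 1.3e-06, edgeR; 9 of 9 other seeds). Its level in double-positive cells, 317 ± 24.5 CPM, stood beside 293 ± 11.1 in cells with Cd27 alone and 216 in cells with neither. Cd69, which holds lymphocytes in tissue by opposing S1PR1, was 1.34-fold higher (log2 fold 0.42; adjusted p = 0.027, edgeR; 9 of 9 other seeds). Without tag 1 its log2 fold was 0.43 (adjusted p = 0.18) and without tag 2 it was 0.38 (0.24). The integrin genes Itgb2, whose product pairs with CD11b, and Itga4 were 1.25-fold and 1.16-fold lower, and were called in 9 and 6 of 9 other seeds. Without tag 2 the log2 fold of Itgb2 went from -0.32 to -0.24 (adjusted p = 0.26, edgeR), and without tag 3 that of Itga4 from -0.22 to -0.21 (0.066). S1pr1 was at 52.5 against 43.5 CPM and did not pass.

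Of 31 tested NK receptor genes 1 was higher (3.23%) and 3 were lower (9.68%), against 0.997% and 0.54% of all genes tested. The other members did not pass, and the median log2 fold was 0.02. Cd160, a receptor for HVEM and class I molecules, was at 99.0, 99.8 and 87.8 CPM against 54.0, 57.5 and 62.0 CPM, 1.69-fold higher (adjusted p = 4.4e-04, edgeR; 6 of 9 other seeds). After thinning to 1500 UMIs, which left 187 double-positive cells, its log2 fold turned to -0.33 and did not pass. Klra9 and Klra5, Ly49 receptor genes, were 1.49-fold and 4.13-fold lower. Klra9 was called in 9 of 9 other seeds and Klra5, at 5.23 ± 2.02 against 22.1 ± 5.96 CPM, in 2 of 9. For Klra5 the log2 fold was -2.05, while in the other seeds it lay between -1.70 and -0.27 with a median of -0.84, so none of them reached the fold given. Genes of the Klra family are near-identical copies whose reads may be split between them, so both are uncertain. Klrk1, which encodes NKG2D, Klrd1 and Klra8 lay at log2 folds of 0.02, -0.02 and 0.08.

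Of 18 tested genes of receptor adaptors and proximal kinases 0 passed in edgeR, and the median log2 fold was 0.03. Over all genes tested 1.54% passed, so 0 of 18 lies near that share. Tyrobp, the adaptor DAP12, was at 2972 against 2871 CPM. Among 29 transcription factor genes 2 were higher, Tcf7 and Tox, and 3 lower, Zeb2, Irf8 and Id2. Id2, an inhibitor of E proteins required for innate lymphocytes, was at 834 ± 14.1 against 1006 ± 78.0 CPM, a 1.18-fold difference called in 7 of 9 other seeds. Its log2 fold of -0.24 became -0.20 without tag 1 (adjusted p = 0.062, edgeR) and also without tag 3 (0.12). Eomes, the T-box factor of NK identity, was at 321 against 325 CPM. Ikzf1 and Runx1, other abundant factors, were at 982 against 978 and at 687 against 721 CPM and did not pass.

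Of 9 cytokine and chemokine genes, Ltb and Xcl1 were higher and Ccl5 lower. Ccl5, a chemokine stored by NK cells, was at 11989 ± 223 against 14159 ± 338 CPM, 1.16-fold lower and called in 9 of 9 other seeds. Without tag 2 its log2 fold was -0.21, against -0.22, and its adjusted p 0.081 (edgeR). Ifng was at 115 against 112 CPM and Ccl4 at 608 against 665 CPM, and neither passed. Of 25 cytokine receptor and signaling genes Il7r was higher and Il12rb2, a chain of the interleukin 12 receptor, lower. Il12rb2 was at 339 ± 105 against 426 ± 84.6 CPM and was called in 1 of 9 other seeds, and not without tag 3 (0.41). Its log2 fold was -0.30, while in the other seeds it lay between -0.26 and -0.07.

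**Figure D4:**
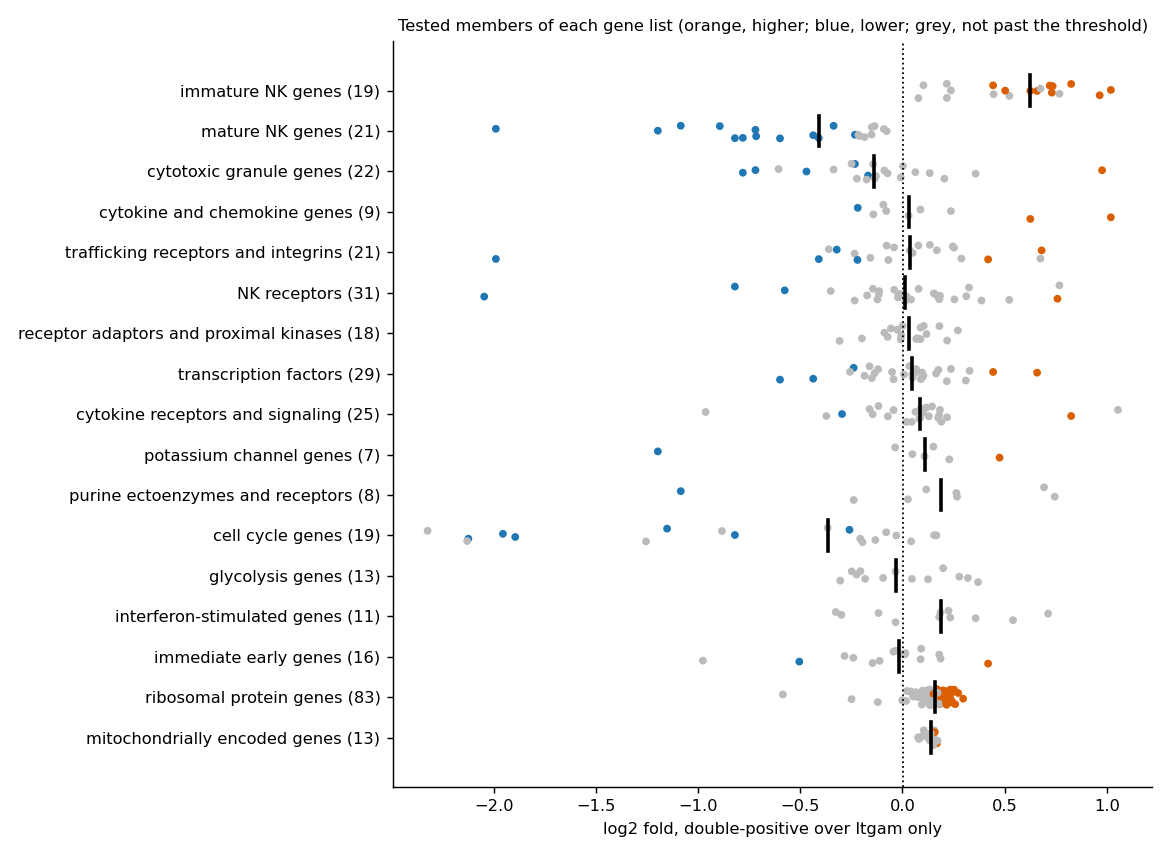
Log2 fold of double-positive over Itgam-only cells (x axis) for the tested members of each gene list, with their number in parentheses; orange, higher; blue, lower; grey, not past the threshold. Black lines are the list medians and the dotted line is the median of all genes tested; the immature and mature NK lists lie on opposite sides of it.

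Other genes with large differences are named by the size of their fold among called genes at 20 CPM or more. Pdcd1lg2, which encodes PD-L2, a ligand of PD-1, was at 46.6, 31.5 and 49.9 CPM in double-positive and at 16.5, 13.1 and 19.9 CPM in Itgam-only cells. It was 2.61-fold higher without overlap (adjusted p = 8.5e-05, edgeR; 8 of 9 other seeds). Kbtbd11, a Kelch and BTB domain gene, was at 42.2, 41.2 and 48.2 against 21.1, 23.9 and 27.6 CPM (adjusted p = 0.0067, edgeR; 9 of 9 seeds). Without tag 1 its adjusted p was 0.088.

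Ror1, a receptor tyrosine kinase-like gene, was at 13.1, 39.0 and 17.2 CPM against 7.22, 11.8 and 8.38 CPM, with tag 2 far above the other tags. It was called in 2 of 9 other seeds, and without tag 2 its adjusted p was 0.56 in edgeR. The solute carrier genes Slco3a1 and Slc26a11 were 1.81-fold and 1.74-fold higher and were called in 7 and 6 of 9 other seeds, but Slco3a1 not without tag 2 (0.71) and Slc26a11 not without tag 1 (0.43). Zfp827, a zinc finger gene, Camk2b, a calcium and calmodulin-dependent kinase gene, and Fmnl3, a formin gene, were 1.76-fold, 1.76-fold and 1.75-fold higher, but were called in only 2, 2 and 0 of the other seeds. Each had a log2 fold of 0.81, while the highest in the other seeds was 0.70, 0.75 and 0.63. Zfp827 was lost without tag 1 (0.27), and the other two without tag 2 (0.057 and 0.29) and without tag 3 (0.20 and 0.23).

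Among the lower genes, Cdc20b, a relative of the mitotic activator Cdc20, was at 32.0, 27.1 and 27.5 against 57.8, 63.3 and 72.6 CPM, 2.19-fold lower without overlap (adjusted p = 1.5e-04, edgeR; 8 of 9 other seeds). Its log2 fold was -1.13, while in the other seeds it lay between -1.07 and -0.47 with a median of -0.81. Cdc20b overlaps 6 other annotated genes. Phactr2, a phosphatase and actin regulator gene, and Smarcd3, a chromatin remodelling subunit gene, were 2.39-fold and 1.97-fold lower, each in 4 of 9 other seeds. Phactr2 was lost without tag 3 (0.17), and Smarcd3 without tag 1 (0.34) or tag 2 (0.24). Car1, carbonic anhydrase 1 of red cells, was at 17.5, 13.0 and 17.2 against 18.5, 17.8 and 121 CPM, so the highest value belonged to tag 3. It was called in 1 of 9 other seeds, and its log2 fold in those 9 lay between -1.03 and -0.15. Without tag 3 its log2 fold went from -1.46 to -0.26 (adjusted p = 0.88).

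Some cell cycle genes were lower in double-positive cells, though not in every thinning. Of 19 tested genes 6 were lower, Mki67, Top2a, Hist1h1b, Stmn1, Ube2c and Hmgb2, 0 were higher, and the median log2 fold was -0.37. Those 6 are 31.6% of the list, against 0.54% lower over all genes tested. Hist1h1b, a linker histone gene of dividing cells, was at 8.74, 8.68 and 17.2 CPM against 50.3, 66.8 and 21.4 CPM. Top2a, a topoisomerase of dividing cells, was at 20.4, 16.3 and 15.5 CPM against 37.8, 56.4 and 16.8 CPM. In both genes tag 3 of the Itgam-only class was far below tags 1 and 2. Mki67 was at 7.28, 2.17 and 10.3 CPM against 26.9, 33.7 and 6.20 CPM, so it was lower in 2 of 3 tags. Its double-positive level rests on 13 UMIs.

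Stmn1, which encodes the microtubule regulator stathmin, was at 64.1, 58.6 and 91.2 against 142, 121 and 109 CPM and was called in 7 of 9 other seeds. The other 5 members were called in 1 to 5 of 9. In the other seeds and settings between 0 and 10 genes of the list were lower, and with seed 4 its median log2 fold was 0.10. Without tag 2 the adjusted p of Mki67, Top2a, Ube2c and Hmgb2 was 0.64, 0.65, 0.63 and 0.12, and without tag 1 that of Ube2c and Hmgb2 was 0.083 and 0.14. The share of cells with a Top2a UMI at 2500 UMIs was 2.89% in double-positive and 3.24% in Itgam-only cells, and that with an Mki67 UMI was 1.43% and 1.54%. Classes set without thinning gave Mki67 and Top2a a log2 fold of 0.02 and 0.09.

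Ribosomal protein genes were higher by small amounts: 38 of 83 tested (45.8%) were higher and 0 lower. Over all genes tested 0.997% were higher. The median log2 fold of the list was 0.16, and the called members were between 1.11-fold and 1.23-fold higher. Rpl12 was at 2081, 2048 and 2152 CPM against 1699, 1725 and 1760 CPM (adjusted p = 4.9e-05, edgeR; 9 of 9 other seeds). The number called was 8 to 51 with the other seeds, 2 after thinning to 1500 UMIs and 0 among cells with at least 2 Itgam UMIs. Of 13 mitochondrially encoded genes 2 were higher, mt-Co1 and mt-Co3, by 1.12-fold each (8 and 5 of 9 other seeds), and the median share of mitochondrial UMIs was 1.41% in double-positive and 1.24% in Itgam-only cells. The part of this share in the other results was not tested.

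Glycolysis and interferon-stimulated genes gave 0 calls among 13 and 11 tested in edgeR, with medians of -0.03 and 0.19. With 1.54% of all genes tested called, 0 calls in lists this small lie near that share. Of 16 immediate early genes, Cd69 was higher and Dusp2, a phosphatase of MAP kinases, lower, at 332, 338 and 492 against 486, 506 and 672 CPM. The Dusp2 class ranges overlap because tag 3 was high in both classes, and the gene was lower within each tag (adjusted p = 5.5e-06, edgeR; 9 of 9 other seeds). Its log2 fold was -0.50, while in the other seeds it lay between -0.45 and -0.28.

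Cells near the boundary of the 2 classes were described without a test. The 283 Itgam-only cells whose Cd27 UMIs were lost by thinning lay at 19.0 ± 8.01 CPM for Cx3cr1, against 70.0 ± 14.9 in the 2199 Itgam-only cells that never had one. For Kcnj8 the levels were 30.9 ± 8.64 and 80.6 ± 9.07 CPM, for Ly6c2 192 ± 41.6 and 561 ± 98.3, for Klrg1 58.1 ± 6.10 and 159 ± 19.7, for Emb 512 ± 170 and 207 ± 65.1, and for Ltb 137 ± 38.3 and 50.9 ± 10.1. These 6 are the genes plotted. Of the 24 genes singled out by fold, or as Kcnj8, the cells on the Itgam-only side of the boundary were nearer to the double-positive mean for 19, and nearer to the other Itgam-only cells, or beyond them, for 5: Camk2b, Fmnl3, Hist1h1b, Top2a and Zfp827. Hist1h1b was at 93.3 CPM in the 283 cells and 37.0 in the other Itgam-only cells, against 11.5 in double-positive cells. The 24 genes were chosen on the comparison of the same classes, and the 283 cells were deeper (median 5972 UMIs) than the 2199 (3718). On the other side, the 57 double-positive cells with 2 or more Cd27 UMIs were at 5.94 ± 5.16 CPM for Cx3cr1, 25.0 ± 6.96 for Kcnj8, 130 ± 26.1 for Cd160 and 67.4 ± 8.59 for Kbtbd11. The 383 with exactly 1 were at 18.2 ± 6.86, 31.5 ± 6.05, 89.8 ± 6.48 and 39.7 ± 4.63 CPM. The Cx3cr1 level of the 57 cells rests on 2 UMIs. Of the 24 genes, 17 were further from the other Itgam-only cells with 2 or more Cd27 UMIs than with 1. The 7 that were not were Camk2b, Cdc20b, Fmnl3, Gzmm, Klra5, Ror1 and Top2a. Any larger distance between means was counted, however small, and no such tally was made over all genes. Among the 17, Phactr2, Hist1h1b, Smarcd3 and Car1 rested on only 1, 2, 3 and 4 UMIs in the 57 cells. Ror1 was at 8.11 CPM with 2 or more and 25.2 with 1, and Gzmm at 10.7 and 28.1, from 2 and 3 UMIs in the 57 cells.

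Among the listed markers of other cell types that could be tested, 1 was higher in double-positive cells, Il7r, and 1 lower, Car1. The summed level of 10 T cell markers was 546 to 596 CPM in the 3 tags of double-positive cells and 479 to 562 in Itgam-only cells, and 0 of the 4 that could be tested passed in edgeR. Cd4, Cd8a and Cd6 were at 0 UMIs in double-positive cells. The 8 markers of type 1 innate lymphoid cells (ILC1) summed to 145 to 220 against 134 to 151 CPM, and Il7r was the 1 of 6 tested that was higher. Of those not called, Rora, Gpr183 and Itga1 had means of 81.6 against 67.1, 19.0 against 14.3 and 8.64 against 8.29 CPM. Tmem176b and Tmem176a went the other way, at 9.38 against 11.7 and 3.24 against 8.22 CPM. The part of such cells in the higher level of Il7r was not tested. The 8 erythroid markers summed to 212 to 259 against 219 to 405 CPM, with Car1 lower, and the highest value belonged to tag 3, which also set the difference in Car1.

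Outside the lists, and picked after their values were seen, 2 further genes typical of other cells were lower. Igkc, the immunoglobulin kappa constant gene of B and plasma cells, was at 90.3, 90.02 and 68.9 against 97.6, 181 and 91.5 CPM (adjusted p = 0.016, edgeR; 1 of 9 other seeds). Cst3, the cystatin C gene, abundant in myeloid cells, was at 192, 133 and 177 against 350.1, 176 and 172 CPM (adjusted p = 0.029, edgeR; 6 of 9). The highest Itgam-only value was that of tag 2 for Igkc and of tag 1 for Cst3, and the part of such cells in the other results was not tested. The 8 B cell markers summed to 113 to 141 against 93.0 to 135 CPM and the 9 dendritic cell markers to 81.3 to 478 against 154 to 523 CPM, and none of those tested, 2 and 4, passed in edgeR. The 8 monocyte or macrophage markers summed to 70.5 to 215 against 70.7 to 286 CPM, and 0 of the 3 tested passed. Those tested were Ms4a6c, at 61.9 ± 4.87 against 47.7 ± 4.51 CPM, Cd68, at 8.10 ± 5.31 against 3.88 ± 2.66, and Lyz2, at 55.1 ± 66.0 against 115 ± 94.6. Of the untested, Csf1r was at 1.15 against 3.40 CPM. C1qa, C1qb, Adgre1 and Fcgr1 had 0 UMIs in double-positive cells and 53, 65, 21 and 7 in the larger Itgam-only class. The Itgam-only level of C1qb, 4.75 ± 7.95 CPM, had an SD over tags above its mean. The 5 neutrophil markers, with 0 that could be tested, summed to 1.08 to 2.91 against 3.47 to 103 CPM, highest in tag 2. The part of myeloid cells in the other results was not tested. Of 10 NK markers, Gzma, Nkg7 and Prf1 were lower and 0 higher, and all were found in both classes. The summed NK markers were 21099 to 23132 CPM in double-positive and 24822 to 26368 in Itgam-only cells.

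Promoters are shown for the genes with the lowest adjusted p in each direction that had a single RefSeq entry, so that both directions of the comparison are seen in sequence. Each is the run of 250 bases before RefSeq's start in build GRCm38.p6, in the direction of the gene. They were searched on both strands for ATCAAAG, a core of TCF/LEF sites, and for TCACACC, a core of T-box sites, and matches are in capitals. Emb lies at chr13:117220323-117220572 on the plus strand, Aff3, a nuclear regulator gene outside the lists that was 1.62-fold higher (9 of 9 other seeds), at chr1:38627245-38627494 on the minus strand, Gzma at chr13:113100982-113101231 on the minus strand and Gzmb at chr14:56262335-56262584 on the minus strand.
Emb: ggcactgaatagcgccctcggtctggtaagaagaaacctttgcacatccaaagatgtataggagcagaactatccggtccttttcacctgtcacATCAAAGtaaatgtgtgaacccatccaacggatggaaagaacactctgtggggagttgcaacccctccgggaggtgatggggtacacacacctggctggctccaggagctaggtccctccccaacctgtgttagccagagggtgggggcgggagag
Aff3: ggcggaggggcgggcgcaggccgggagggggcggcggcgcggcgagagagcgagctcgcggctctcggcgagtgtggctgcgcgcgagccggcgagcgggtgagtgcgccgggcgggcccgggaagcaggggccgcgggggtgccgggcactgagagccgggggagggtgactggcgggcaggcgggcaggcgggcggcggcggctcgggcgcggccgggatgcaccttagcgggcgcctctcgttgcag
Gzma: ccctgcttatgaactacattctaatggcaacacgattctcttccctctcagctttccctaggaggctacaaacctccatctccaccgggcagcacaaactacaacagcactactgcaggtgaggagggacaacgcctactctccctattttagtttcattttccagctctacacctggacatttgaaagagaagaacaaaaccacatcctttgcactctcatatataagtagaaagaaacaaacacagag
Gzmb: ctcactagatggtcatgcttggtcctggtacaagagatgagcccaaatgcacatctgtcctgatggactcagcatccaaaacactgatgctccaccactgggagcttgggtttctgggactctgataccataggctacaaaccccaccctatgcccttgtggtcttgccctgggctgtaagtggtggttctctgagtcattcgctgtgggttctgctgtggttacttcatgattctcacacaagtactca
Emb held 1 TCF/LEF match, beginning 156 bases before the start, and the other three held none of either motif. A RefSeq promoter was matched for 7591 of the 9625 tested genes, of which 2.79% held ATCAAAG and 3.28% TCACACC. Of the 75 matched genes that were higher in double-positive cells 3 and 7 held them, and of the 40 matched lower genes 5 and 3. A match describes the letters only and shows no binding.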

How the data were processed

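The authors deposited 1 matrix of UMI counts, which per the file headers came from Cell Ranger 7.0.0. The tools and build in the submitters' processing notes are Cell Ranger, Seurat and mm10; no annotation or intron setting is given in the sources used here. No separate table of the second sample was analysed here, and whether its cells are among the 3 tags is not known. Gene and tag counts were used as deposited. Barcodes were kept with 1 tag above its cutoff (140, 196 and 138 counts), and each gated cell was thinned to 2500 UMIs without replacement (seed 1, numpy 2.4.6, Python 3.11.15) for classing only. Sums of unthinned counts for each class within each tag entered edgeR's quasi-likelihood test (edgeR 4.0.16 with limma 3.58.1 in R 4.3.3), with TMM scaling, filterByExpr, tag as block, Benjamini-Hochberg adjustment over all genes and a threshold of 0.05. The 7 genes of the gate stayed in the totals and out of the test. The tag is a block because both sums of a tag come from the same pool of cells. CPM divides a gene's UMIs by all gene UMIs of its sum, times 1000000. Intervals are exact binomial (scipy 1.17.1) and cover counting error only.

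The members and the gene lists were chosen with earlier results of these data known. Genes named singly are up to 12 per direction by size of log2 fold, among those with an adjusted p under 0.05, the same direction in 3 tags and a mean of at least 20 CPM in the higher class; Kcnj8; members of the lists that passed; and the highest-level members of the mature, immature, granule and transcription factor lists. Genes given as not passed outside this rule (such as Tbx21 and Eomes), and Aff3, Traf1, Rpl12, mt-Co1, mt-Co3, Igkc and Cst3, were chosen after their values were seen. On simulated counts with known changes, over 9629 genes, the test called 84.0% of genes 2-fold higher, 52.0% of those 1.5-fold higher, 66.0% of those 2-fold lower, 38.0% of those 1.5-fold lower and 0.053% of unchanged genes. The simulated means held no difference between tags and the classes were fixed. These shares therefore do not cover tag differences or the redrawing of classes by thinning. Alternatives were no block, DESeq2 1.42.0, other scalings and filters, leaving out each tag, other thinning depths and seeds, and narrower gates.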

Additional observations from a re-analysis of the deposited data

How the results depend on the processing

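The counts of called genes, 96 higher and 52 lower, depended most on how cells were classed. Without the tag as a block the counts were 27 and 18. DESeq2 called 68 and 23, and gave no adjusted p for 8770 of 9625 genes, among them 33 named ones. Without a filter on low counts 87 genes were higher and 104 lower. Leaving out each tag in turn gave 55 to 95 higher and 36 to 64 lower, and 28 of 56 called named genes passed whichever tag was left out. Classes from unthinned counts gave 469 and 259, thinning to 1500 UMIs 53 and 35, and at least 2 Itgam UMIs 3 and 3. Across the other thinning seeds 71 to 179 genes were higher and 32 to 100 lower: seed 5 gave 147 higher, seed 6 gave 162 and 100, seed 7 gave 32 lower and seed 8 gave 179 and 80. An alternative added after the data were seen, with only Itgam-only cells that had no Cd27 UMI before thinning, gave 189 higher and 68 lower. The cause of these differences was not tested. The share of double-positive cells was 14.9% without thinning, 2.16% at 1500 UMIs, 6.03% without cells with Cd3 or Il7r UMIs, and 5.37% to 5.79% with 1 tag left out.

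Of 1719 log2 folds of 61 named genes over 29 alternatives, 1333 kept direction and side of the threshold, 355 kept direction but lost the threshold, 13 passed it only there and 18 changed sign. Those were, with seed 4, Fmnl3 (-0.023), Top2a (0.27), Mki67 (0.19), Ube2c (0.53) and Ikzf1 (-0.0075); with unthinned classes, Hist1h1b (0.25), Top2a (0.091), Mki67 (0.019) and Hmgb2 (0.017); without the deepest 10% of cells, Top2a (0.029); at 1500 UMIs, Cd160 (-0.33) and Ikzf1 (-0.029); at 2 Itgam UMIs, Il7r (-1.15); with seed 2, Ahnak (0.0093). Ikzf1 also turned without a filter (-0.0039), without replicate 2 (-0.041, against 0.069 without replicate 3), with thinned sums (-0.023) and without cells with Mki67 or Top2a UMIs (-0.000134). The mature list had 3 to 17 lower and 0 higher members over the alternatives, the immature list 1 to 16 higher and 0 lower. Depth limits the double-positive sums, where 1 UMI in a tag is worth more CPM than in the Itgam-only sums.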

Other observations

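Outside the lists, 6 genes picked after their values were seen were called higher in 9 of 9 other thinning seeds. Aff3, a nuclear regulator gene, was at 478, 515 and 403 CPM in double-positive cells of tags 1, 2 and 3 and at 289, 295 and 298 CPM in Itgam-only cells (adjusted p = 9.4e-08, edgeR). Sidt1, a transmembrane protein gene, was at 218 ± 19.0 against 152 ± 12.5 CPM (SD, n = 3), and Lyst, which encodes a regulator of lysosome-related granules, at 171 ± 19.98 against 123 ± 14.5 CPM. Atp8b4, a phospholipid-transporting ATPase gene, was at 463 ± 49.3 against 353 ± 29.6 CPM. Fgf13, an intracellular fibroblast growth factor homologue, was at 289 ± 33.4 against 209 ± 14.003 CPM, and Ly6e, a Ly6 family surface protein gene, at 325 ± 29.9 against 248 ± 13.1 CPM. All 6 were higher in 3 of 3 tags, and the values of the 2 classes did not overlap.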
